A study of Arabidopsis thaliana with 6 samples.

Results

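QQS and AT1G43590 are a pair of Arabidopsis thaliana genes whose transcript levels separated the mutant alleles bin4-1 and bin4-2, which otherwise had very similar transcriptomes. They were chosen by name for that difference, and they are 2 of 13356 genes measured. By the size of the difference between the alleles, AT1G43590 ranked 1 and QQS ranked 3 among these genes. Measured here means that a probe set names the gene alone. Other probe sets, unnamed or naming several genes, were not ranked. The difference between bin4-2 and bin4-1 is therefore given below as a description, without a test, and so is each allele's change against wild type, which rests on the same arrays.

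QQS (QUA-QUINE STARCH, AT3G30720) is a protein-coding orphan gene on chromosome 3, found only in Arabidopsis thaliana, with no recognisable relatives in other plants. Loss of QQS raises leaf starch, and its protein binds a subunit of the NF-Y transcription factor. The gene is known for silencing that varies between plants and natural accessions along with DNA methylation at its 5′ end. AT1G43590 is annotated as a pseudogene on chromosome 1, in the gene-poor region around the centromere, where most transposons and pseudogenes are kept silent by DNA methylation and histone H3K9 methylation. BIN4 is a component of the plant topoisomerase VI complex, which passes one DNA duplex through another and is needed for endoreduplication, the replication of the genome without division. By its title, the series asks if this complex keeps heterochromatin out of islands of euchromatin.

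RNA came from whole seedlings of wild type (WT), of bin4-1 and of bin4-2, with 2 Affymetrix arrays per genotype and 6 in all. The labels give no treatment, age, accession or growth condition, no other allele, and no statement on whether the arrays of a genotype came from separate cultures, so the errors and p-values cover array-to-array spread that could be purely technical. The median log2 intensity was between 4.70 and 4.76 on every array. Across probe sets, WT and mutant arrays correlated at 0.905 to 0.916, arrays of different alleles at 0.995 to 0.996 and arrays of 1 genotype at 0.995 to 0.997. As a check for green tissue, the Rubisco activase gene RCA lay above 98.9% of genes on each array. PRK lay above 99.6% of genes on both WT arrays and above 95.7% on each mutant array. These genes cannot tell whole seedlings from other green tissue. For BIN4 itself (AT5G24630), WT had a mean log2 intensity of 3.86 ± 0.11, bin4-1 one of 3.33 ± 0.04 and bin4-2 one of 2.98 ± 0.09 (SD over 2 arrays). The place of its probes relative to either mutation was not analysed here.

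QQS was at the WT level in bin4-1 and was lower in bin4-2. Its log2 intensity was 4.66 and 4.99 on the WT arrays, 4.85 and 4.76 on the bin4-1 arrays, and 3.44 and 3.56 on the bin4-2 arrays. On the linear scale these are intensities of 25.3 and 31.8, of 28.9 and 27.2, and of 10.8 and 11.8. Both bin4-1 arrays lay between the WT arrays, and both bin4-2 arrays lay below the other 4 without overlap. WT averaged 4.83 ± 0.24, bin4-1 averaged 4.81 ± 0.06 and bin4-2 averaged 3.50 ± 0.09 (SD over 2 arrays).

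In order of level, WT and bin4-1 came first and could not be separated at QQS, since their means differed by -0.02 ± 0.13 (log2, limma SE) while the WT arrays alone were 0.33 apart. bin4-2 followed, with a log2 difference of -1.33 ± 0.13 from WT (2.51-fold lower) and of -1.31 ± 0.13 from bin4-1 (2.48-fold lower). Any bin4-2 array against any bin4-1 array gave a log2 difference between -1.42 and -1.20, and against any WT array between -1.56 and -1.10. The difference from bin4-1 lay between -1.37 and -1.25 when each array was left out in turn. In whole seedlings, fewer expressing cells and less RNA per cell cannot be told apart.

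AT1G43590 showed another order, with bin4-1 alone above the other genotypes. Its log2 intensity was 3.06 and 2.95 on the WT arrays, 4.96 and 5.15 on the bin4-1 arrays, and 2.93 and 2.64 on the bin4-2 arrays. The corresponding intensities were 8.35 and 7.74, then 31.1 and 35.6, then 7.64 and 6.25. Both bin4-1 arrays lay above all others without overlap, and both bin4-2 arrays lay just below the WT arrays. WT averaged 3.01 ± 0.08, bin4-1 averaged 5.06 ± 0.14 and bin4-2 averaged 2.79 ± 0.21 (SD over 2 arrays).

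The log2 difference from WT at AT1G43590 was 2.05 ± 0.13 in bin4-1 (limma SE, 4.14-fold higher) and -0.22 ± 0.13 in bin4-2. Leaving out each array in turn gave -0.36 to -0.07 for the latter, which is about as large as the 0.29 between the bin4-2 arrays themselves. bin4-2 was 4.81-fold lower than bin4-1 (log2 -2.27 ± 0.13), with a range of -2.51 to -2.02 over pairs of single arrays. The replicate spread of both genes was somewhat above that of the median gene, with a pooled SD of 0.15 log2 units for each against 0.11.

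Brightness sets a limit on these folds. As a percentile of all probe sets on the same array, AT1G43590 lay at 17.3 and 13.8 in WT, 53.2 and 56.3 in bin4-1, and 15.2 and 7.98 in bin4-2. QQS lay at 49.2 and 53.9 in WT, 51.8 and 50.4 in bin4-1, and 29.0 and 31.9 in bin4-2. Probe sets differ in brightness for equal amounts of RNA, and no background level was set, so the low values may not be detected transcript, and the folds to them may be understated. Each gene is named by 1 probe set.

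**Figure D1:**
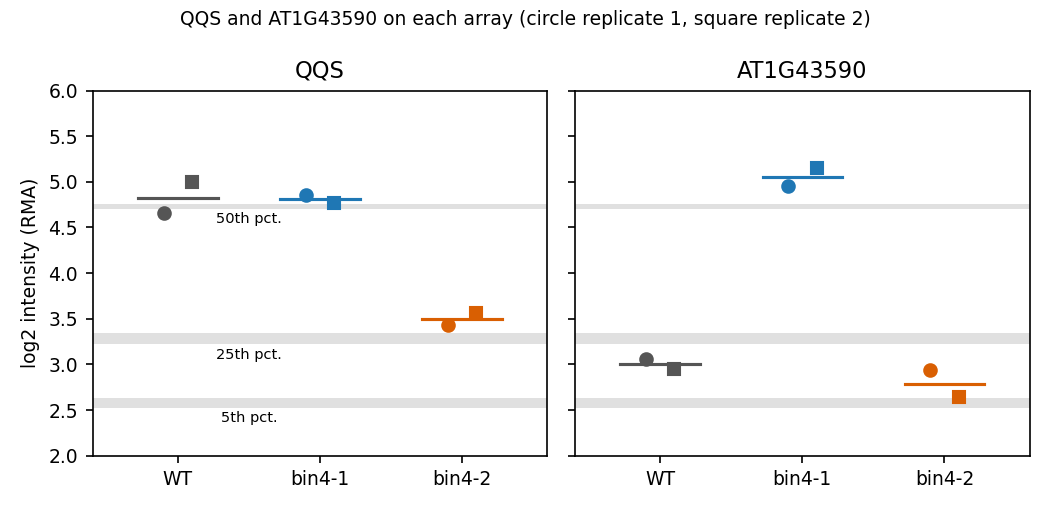
Log2 RMA intensity of QQS (left) and AT1G43590 (right) on each of the 6 arrays, by genotype. Circles are replicate 1, squares replicate 2, horizontal lines group means of 2 arrays, and grey bands the range over arrays of the 5th, 25th and 50th percentile of all probe sets. QQS is low on both bin4-2 arrays, and AT1G43590 is high on both bin4-1 arrays.

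The contrast of the mean of both alleles with WT is orthogonal to the difference by which the genes were chosen, and was tested. It averages unlike alleles, so neither allele sits at its value. QQS was lower by this measure, with a log2 change of -0.67 ± 0.11 (limma SE, adjusted p = 2.41e-04), although only the bin4-2 arrays, 2 of the 4 mutant arrays, lay below both WT arrays. AT1G43590 was higher, with a log2 change of 0.92 ± 0.11 (limma adjusted p = 1.89e-05), and likewise only the 2 bin4-1 arrays lay above both WT arrays. Over alternative settings and with each array left out in turn, the adjusted p ranged from 9.94e-05 to 0.00356 for QQS and from 1.45e-06 to 3.54e-04 for AT1G43590. Of all genes, 52% passed in this contrast, 28.8% lower and 23.2% higher, so passing it does not set the pair apart. Over all genes, the median of this log2 change was -0.08.

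At least 2-fold changes in one allele with the other allele near WT were rare among the measured genes. At least 2-fold changes from WT in either allele were found for 2036 genes, of which 883 were higher and 807 lower by that much in both alleles. The rest did not pass that limit in the same direction in both alleles. QQS was the single gene that was at least 2-fold lower in bin4-2 and within 0.25 log2 units of WT in bin4-1. AT1G43590 was the single gene that was at least 2-fold higher in bin4-1 and within 0.25 of WT in bin4-2. The opposite patterns, a 2-fold rise in bin4-2 or a 2-fold fall in bin4-1 with the other allele within 0.25, held 0 genes each. These limits were chosen with the values known. With a band of 0.5 around WT, AT3G19430 joined QQS, AT3G47800 and AT1G55240 joined AT1G43590, and AT4G14060 was at least 2-fold lower in bin4-1 alone. The 2 contrasts share the WT arrays. The 2-fold limit also decides these counts, as smaller falls in bin4-2 with bin4-1 within 0.25 of WT were present. Examples are AT5G62330 (log2 0.10 in bin4-1 and -0.75 in bin4-2), AT5G54370 (0.17 and -0.73) and AT1G52050 (0.06 and -0.67). Likewise, AT5G19110 (0.64 and -0.21) had the course of AT1G43590 below the 2-fold limit.

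**Figure D2:**
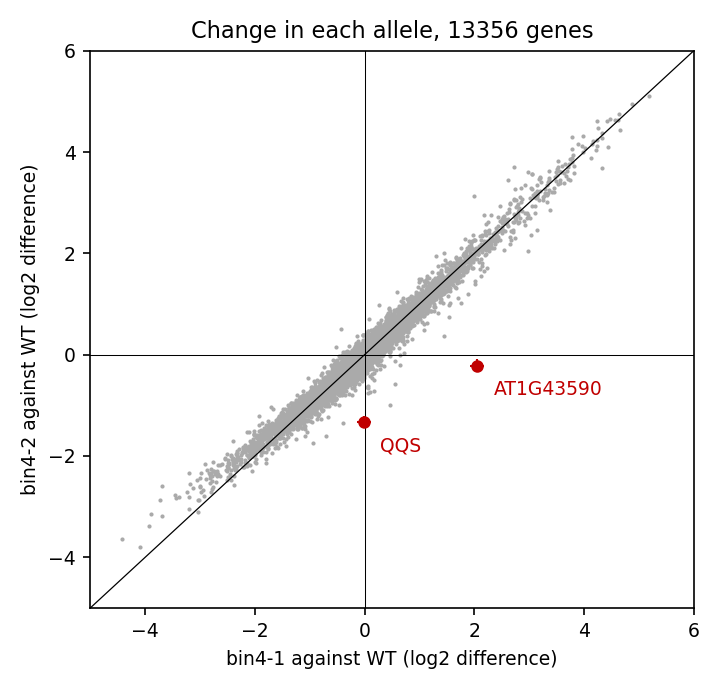
Log2 difference from WT in bin4-1 (horizontal) and bin4-2 (vertical) for the 13356 genes, as grey points, with the line of equal change. QQS (-0.02 and -1.33) and AT1G43590 (2.05 and -0.22) are in red with limma standard errors, both below the line and apart from the cloud.

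By size, 7 genes differed at least 2-fold between the alleles. Between AT1G43590 and QQS in rank stood AT1G52060, a jacalin-lectin gene, with a log2 difference of -1.46 (bin4-2 minus bin4-1). The next after QQS were AT2G38240, a 2-oxoglutarate-dependent oxygenase gene, at 1.13, and AT1G52070, another jacalin-lectin gene, at -1.13. Unlike the pair, AT2G38240 was well above WT in both alleles, by 2.00 in bin4-1 and 3.13 in bin4-2 on the log2 scale. Both jacalin-lectin genes stood on opposite sides of WT, AT1G52060 at 0.46 in bin4-1 and -0.99 in bin4-2, and AT1G52070 at 0.54 and -0.58.

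The genes most like QQS over the 6 arrays followed it closely in the course and size of their deviations. Likeness was measured as the root-mean-square difference between the genes' log2 deviations from their own means over 6 arrays, where 0 is an identical course and a flat gene would stand at 0.63 from QQS. The nearest was AT3G19430 at 0.20, with log2 differences from WT of -0.39 in bin4-1 and -1.35 in bin4-2. AT5G62330 followed at 0.25, the jacalin-lectin gene AT1G52060 at 0.27, AT5G54370 at 0.28 and AT1G52050, of the same jacalin-lectin cluster, at 0.30. Each of these 5 was lowest on the bin4-2 arrays, which largely follows from choosing them for likeness to QQS.

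AT1G43590 had no such close match by this measure, which is unscaled and so counts the size of a change as well as its shape. The nearest gene, AT3G47800, which encodes a galactose mutarotase-like protein, was 0.51 away, where a flat gene would stand at 1.03. It was 1.44 above WT in bin4-1 and 0.36 above WT in bin4-2 on the log2 scale. The chitinase gene AT2G43610 followed at 0.63, AT1G52070 at 0.65 and AT5G19110 and AT1G52060 at 0.69 each. Against WT, AT5G19110 gave log2 differences of 0.64 in bin4-1 and -0.21 in bin4-2, the same course as AT1G43590 with a smaller rise. All 5 were highest on the bin4-1 arrays, which largely follows from choosing them for likeness, with smaller rises than AT1G43590 itself. These genes share arrays and genotypes, and with 6 arrays many genes can look alike.

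**Figure D3:**
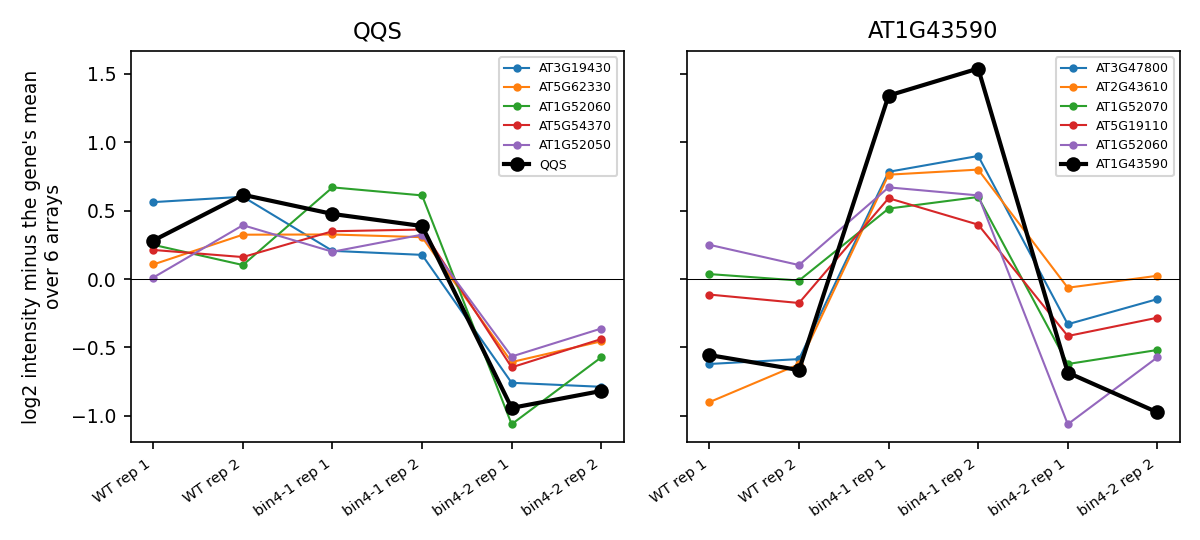
Log2 intensity minus the gene's mean over the 6 arrays, for QQS (left, black) and AT1G43590 (right, black) and the 5 genes with the smallest root-mean-square difference from each (colours). Lines only join the arrays of a gene and have no time order. The courses near QQS overlap with it, while those near AT1G43590 have smaller peaks in bin4-1.

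The measured neighbours of QQS on chromosome 3 differed little between the alleles in size. The 5 nearest measured genes by locus number on each side were mostly pseudogenes. All were dim, with WT mean log2 intensities from 2.33 (AT3G30750) to 3.52 (AT3G30740). The 25th percentile of probe sets lay at 3.22 to 3.34 over the arrays. Such probe sets may not detect transcript, so little difference in them does not show that the region is unchanged. The log2 difference of these neighbours between bin4-2 and bin4-1 ranged from -0.18 to 0.16 with a median of -0.01. At an unadjusted limma p under 0.05, 0 of the 10 differed between the alleles. All genes were not counted at that limit. After adjustment, limma called 0 of the 10, against 0.247% of all genes, 0.12% higher and 0.127% lower in bin4-2. That share is 33 genes, or 51 without either WT array, 9 and 11 without bin4-1 replicate 1 or 2, and 7 without either bin4-2 array. With so few genes called anywhere, 0 of 10 is a count that most sets of 10 genes would give. AT3G30710, the nearest on one side, gave log2 differences from WT of -0.28 in bin4-1 and -0.46 in bin4-2. AT3G30730, the nearest on the other side, gave -0.09 and -0.02. In the mean of both alleles against WT, 1 of the 10 passed, where 52% of all genes did: the pseudogene AT3G30640 (-0.32 ± 0.09, limma SE, adjusted p = 0.0103), which was lost without WT replicate 1 (-0.26, adjusted p = 0.0765). AT3G30710 (-0.37, limma adjusted p = 0.0607) passed without WT replicate 1 (-0.63, adjusted p = 0.00559), without bin4-1 replicate 2 (-0.45, adjusted p = 0.0322) and without bin4-2 replicate 2 (-0.44, adjusted p = 0.0464), and dropped to -0.11 without WT replicate 2.

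No measured neighbour of AT1G43590 was called higher than WT in either allele. Of the 10 nearest measured genes, 0 were called higher and 4 lower in bin4-1, where 22% and 25% of all genes were called higher and lower. In bin4-2, 0 were higher and 5 lower, against 21.1% and 26.6%. The WT mean log2 intensity of these neighbours ran from 2.30 (AT1G43660) to 7.28 (AT1G43560). The dim ones may not detect transcript, and brightness was not matched in these shares. AT1G43580, next to the pseudogene, was lower in both alleles, with log2 differences from WT of -1.03 and -1.21. AT1G43560, which encodes a chloroplast thioredoxin, gave -1.55 and -1.22, and UGT80B1, a sterol glucosyltransferase gene, -0.73 and -0.81. AT1G43320 gave -0.35 and -0.31. In the mean of both alleles, 5 of the 10 passed, a share near the 52% of all genes: these 4 and AT1G43690 (-0.30 ± 0.10, limma SE, adjusted p = 0.0246). The call of AT1G43690 was lost without WT replicate 1 (-0.20, adjusted p = 0.189), without bin4-1 replicate 1 (-0.28, adjusted p = 0.0697) and without bin4-2 replicate 2 (-0.25, adjusted p = 0.0721). Between the alleles, limma called 0 of the 10, against 0.247% of all genes called, and the log2 differences ranged from -0.18 to 0.33. An unadjusted limma p under 0.05 was reached by 1 of the 10, and all genes were not counted at that limit.

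**Figure D4:**
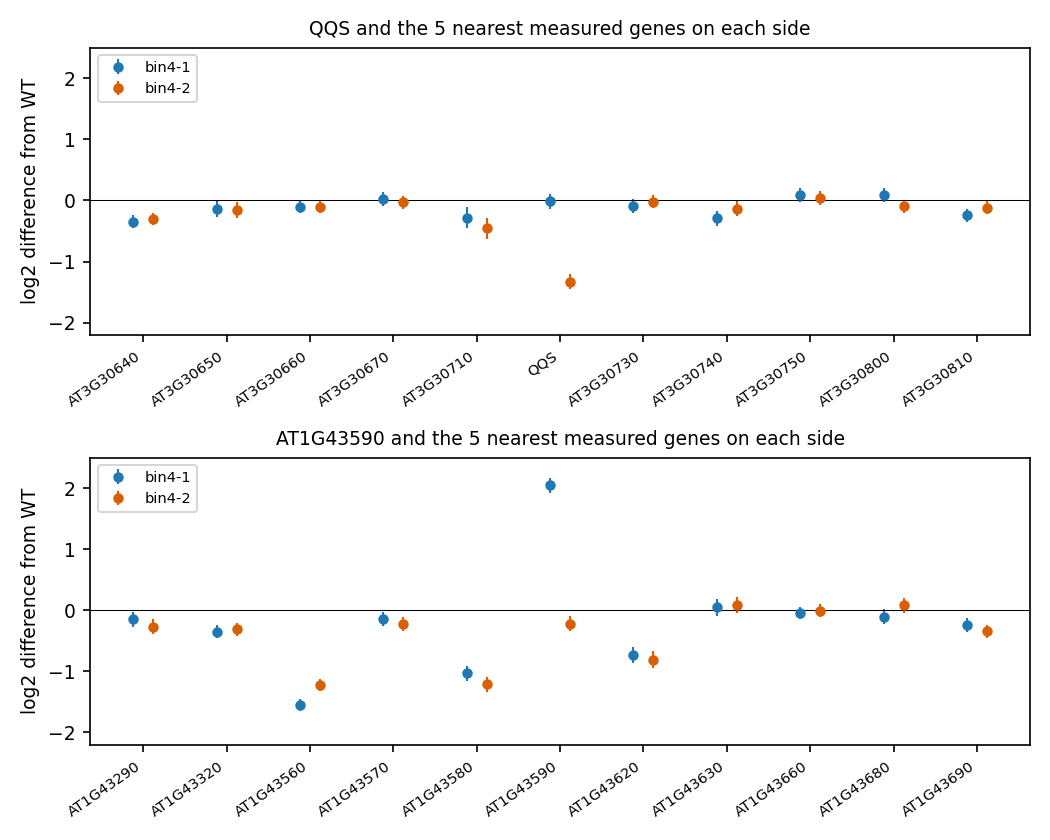
Log2 difference from WT in bin4-1 (blue) and bin4-2 (orange), with limma standard errors, for QQS (top) and AT1G43590 (bottom) and the 5 nearest measured genes on each side in locus order, not to scale along the chromosome. QQS in bin4-2 (-1.33) and AT1G43590 in bin4-1 (2.05) stand apart from their neighbours. The neighbours of QQS are dim, at WT mean log2 intensities of 2.33 to 3.52, and may not detect transcript.

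The wider region and the other pseudogenes held few calls between the alleles, where 0.247% of all genes were called, and no difference in that share was tested. Brightness was not matched, and dim probe sets may not detect transcript, so few calls do not show that these genes are unchanged. Among 1137 other genes of the core windows around the centromeres, where both QQS and AT1G43590 lie, limma called 1 between the alleles, AT3G29970, with 42 at an unadjusted p under 0.05. AT3G29970 was higher in bin4-2 by 0.98 (log2), above WT in both alleles (2.72 and 3.70). Among 988 other pseudogenes, limma called 0 between the alleles, with 20 at an unadjusted p under 0.05. The differences ranged from -0.59 to 0.47, with a median of -0.01 as over all genes. All genes were not counted at an unadjusted p under 0.05, so the 42 and the 20 have no share beside them.

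Against WT, AT1G43590 ranked 3 among all pseudogenes by its rise in bin4-1. Of the 988 others, 7 were at least 2-fold higher in bin4-1 and 6 in bin4-2, and 6 were so in both. The pair above AT1G43590 were AT3G48650, with log2 differences of 2.46 in bin4-1 and 2.93 in bin4-2, and AT4G14610, with 2.15 and 1.75. None of the 988 was at least 2-fold higher in bin4-1 and within 0.25 of WT in bin4-2, which follows from AT1G43590 being the single such gene of all measured. Of the 988, 95 were called lower and 22 higher in bin4-1, or 11.8% in all, where 25% of all genes were lower and 22% higher. In bin4-2, 112 were lower and 20 higher, or 13.4% in all, where 26.6% and 21.1% of all genes were. Brightness was not matched between the pseudogenes and all genes.

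The starch genes that passed moved in the same direction in both alleles. Of 43 listed genes of starch synthesis and breakdown, 8 were measured and the other 35 were not analysed here. In each allele against WT, 4 of the 8 fell and 1 rose, where 47% of all genes were called in bin4-1 and 47.7% in bin4-2. The alleles share the WT arrays. The median log2 difference of the 8 was -0.41 in bin4-1 and -0.52 in bin4-2, against -0.08 and -0.09 over all genes. Between the alleles, limma called 0 of the 8, a count that the 0.247% of all genes called would also give. At an unadjusted limma p under 0.05 there was 1, and all genes were not counted at that limit.

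In starch synthesis, the branching enzyme gene SBE2.2 fell, with log2 differences from WT of -1.92 in bin4-1 and -1.58 in bin4-2 (SE 0.10) and, averaged over the alleles, a limma adjusted p of 1.27e-08. PTST1 (AT5G39790), whose protein brings granule-bound starch synthase to the granule, fell, at -0.83 and -0.68. APL3 and APL4, large subunits of ADP-glucose pyrophosphorylase, gave log2 differences of 0.17 and 0.08 in bin4-1 and of 0.38 and 0.18 in bin4-2, without passing. The mean change of APL3 (0.27, limma adjusted p = 0.105) passed without bin4-1 replicate 1 (0.37, adjusted p = 0.0288) and without bin4-2 replicate 1 (0.36, adjusted p = 0.0464). It was 0.17 without bin4-1 replicate 2 (adjusted p = 0.299) and 0.19 without bin4-2 replicate 2 (adjusted p = 0.277).

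In starch breakdown, AMY1, a secreted alpha-amylase, rose by 4.43 in bin4-1 and 4.61 in bin4-2 on the log2 scale (SE 0.10). DPE1, the plastid disproportionating enzyme, fell, at -1.08 and -1.30, as did PWD (AT5G26570), which phosphorylates starch, at -1.03 and -1.20. AT4G24450, a glucan water dikinase gene, gave 0.01 and -0.37 without passing. Its mean change of -0.18 ranged from -0.42 to 0.06 with each array left out, and changed sign without WT replicate 2.

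Few genes of the silencing machinery had a probe set that named them alone. The others may be covered by probe sets that are unnamed or name several genes, which were not assigned to a gene. Of 27 listed genes of DNA methylation and silencing, 1 was measured, DME, a DNA glycosylase that removes methylated cytosine. Its log2 difference from WT was 0.25 in bin4-1 and 0.24 in bin4-2, and -0.01 between the alleles. Its mean change of 0.25 (limma adjusted p = 0.0607) passed without WT replicate 1 (0.35, adjusted p = 0.0328) and without bin4-2 replicate 1 (0.30, adjusted p = 0.0391), and dropped to 0.14 without WT replicate 2 (adjusted p = 0.359). Of the 4 topoisomerase VI genes, only BIN4 had a probe set that named it alone. BIN4 fell in both alleles, with log2 differences of -0.53 and -0.87. The 8 listed NF-Y and SnRK1 genes linked to QQS and the 13 listed genes with epigenetically variable expression were not analysed here.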

How the data were processed

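The values deposited by the authors are intensities from Affymetrix arrays of biotin-labelled total RNA, computed with RMA per the submitters' processing notes. RMA subtracts background, brings the arrays to one distribution and combines the probes of each set. No version or setting is stated in the labels. The deposited intensity values are linear, so log2 was taken. For arrays, their number limits the precision. Of 22810 probe sets, 64 controls were left out and 13513 name exactly 1 gene in the platform annotation. Of these, 13436 were matched to RefSeq (TAIR10.1), used for names and locus order only. A further 8730 are unnamed in the annotation used and 503 name several genes, and these were not assigned to a gene. Listed genes that were not analysed may be among them. The brightest probe set by its mean was kept for the 146 genes with several, which left 13356 genes. No genome build is named for the values, so no coordinates are given.

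All genes were fitted with limma 3.58.1 in R 4.3.3 (3 group means, 6 arrays, 3 residual and 8.25 prior degrees of freedom), with two-sided tests, Benjamini-Hochberg adjustment over all genes and a threshold of 0.05, and checked on simulated data. Core windows were set by locus number. Genes named are the pair, the 5 most alike and 5 neighbours per side, their neighbours in rank, and list members that were called or, in lists with at most 4 measured, all. Further genes were named after their values were seen: the other genes past the limits around WT, AT3G29970 and 2 pseudogenes. The members and lists were chosen with earlier results of these data known. The alternatives were quantile normalization, a mean log2 of at least 5, all probe sets, an intensity trend, median subtraction, leaving out each array and, added after seeing the data, a replicate block. Tables and plots used matplotlib 3.10.9, numpy 2.4.6 and pandas 2.3.3 in Python 3.11.15.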

Additional observations from a re-analysis of the deposited data

How the results depend on the processing

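The tested changes of QQS and AT1G43590 in the mean of both alleles against WT kept direction and call under each of the 11 alternatives that could be run for them, at -0.84 to -0.51 and 0.84 to 0.99. Neither gene is left among those of mean log2 5 or more. Without 1 WT array, QQS differed from WT by -0.18 to 0.15 in bin4-1 and by -1.50 to -1.16 in bin4-2, so its sign in bin4-1 is not settled. Of all genes, 33 were called between the alleles, against 52 among those of mean log2 5 or more, 55 with all probe sets, 127 with an intensity trend and 7 to 51 with each array left out (51 without either WT array, 9 and 11 without bin4-1 replicate 1 or 2, 7 without either bin4-2 array). The mean of both alleles gave 6949, against 4126 and 12996 with the first and second of these, which test fewer and more features. After quantile normalization AT3G30730 changed sign (0.010). AT4G24450 ranged from -0.42 to 0.064 with each array left out, and DME passed under the brightness filter (adjusted p = 0.0305). AT3G30710 passed with an intensity trend (limma adjusted p = 0.0318). The cause of the other shifts was not tested. The titles number only 1 array of each genotype and state no pairing. A fit with that numbering as a replicate block, added after seeing the data, gave adjusted p = 3.37e-04 for QQS and 5.11e-05 for AT1G43590 in the mean of both alleles, 25 genes called between the alleles, and calls for APL3 (adjusted p = 0.0390) and AT3G30710 (adjusted p = 0.00752). Across genes, the differences between the arrays of a genotype correlated at -0.04 to 0.08 between genotypes. Such a correlation over all genes, many of them dim, cannot decide if arrays of the same number were handled together.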
